A study of Mus musculus with 6 samples.

Results

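The genes of transforming growth factor beta (TGF-beta) signalling described here are 8 of the 30323 gene IDs of the table: the ligand genes Tgfb1, Tgfb2 and Tgfb3, the latency gene Ltbp1, the receptor genes Tgfbr1, Tgfbr2 and Tgfbr3, and the induced gene Tgfbi. They were taken by gene symbol, each matched a single ID, and all 8 passed the filter on low counts. RNA came from whole mouse hearts at embryonic day 9.5. The 3 control libraries carry the genotype label C57BL/6 ctrl. The other 3 libraries, called MCKO, come from hearts in which Cdc42 was knocked out in the myocardium and carry the label CDC-42 KO. The design names 3 hearts for each set. Cdc42 encodes a small GTPase of the cytoskeleton. The Cre line, the floxed allele, the genotype of the controls at Cdc42 and any pooling of hearts are not given in the labels, and no treatment is named.

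TGF-beta ligands are made as precursors and secreted in a latent form, held by their own propeptide and tethered to the matrix by latent TGF-beta binding proteins. Once released, a ligand is bound by the type II receptor, which recruits and phosphorylates the type I receptor, and this in turn activates SMAD2 and SMAD3, which enter the nucleus with SMAD4. Betaglycan, the product of Tgfbr3, presents ligand to the type II receptor and is most needed for TGF-beta2. In the embryonic heart the pathway is best known for driving endocardial cells into the cushions as mesenchyme, and for the growth and invasion of the epicardium.

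Of the 8 genes, 6 had an entry in the RefSeq promoter table for GRCm38.p6. The 250 bases before the start site are shown for the 3 genes that were higher in MCKO, with every match to 5 motifs in capitals. The motifs, searched on both strands, were the AP-1 site TGANTCA, the cAMP response element TGACGTCA, the core of the hypoxia response element ACGTG, the palindromic SMAD box GTCTAGAC and the TEAD site GGAATG. The windows are chr7:25686752-25687001 on the plus strand for Tgfb1, chr1:186705990-186706239 on the minus strand for Tgfb2, and chr17:75005279-75005528 on the plus strand for the upstream of the 2 listed starts of Ltbp1.

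Tgfb1: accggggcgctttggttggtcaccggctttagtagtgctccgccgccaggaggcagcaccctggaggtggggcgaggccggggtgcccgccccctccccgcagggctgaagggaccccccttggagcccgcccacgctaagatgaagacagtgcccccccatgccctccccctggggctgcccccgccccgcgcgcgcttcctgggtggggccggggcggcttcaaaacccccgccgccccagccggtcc

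Tgfb2: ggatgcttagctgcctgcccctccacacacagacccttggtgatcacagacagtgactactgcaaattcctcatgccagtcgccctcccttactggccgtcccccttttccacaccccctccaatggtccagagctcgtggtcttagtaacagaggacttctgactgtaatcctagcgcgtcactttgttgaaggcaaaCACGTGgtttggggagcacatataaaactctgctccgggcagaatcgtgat

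Ltbp1: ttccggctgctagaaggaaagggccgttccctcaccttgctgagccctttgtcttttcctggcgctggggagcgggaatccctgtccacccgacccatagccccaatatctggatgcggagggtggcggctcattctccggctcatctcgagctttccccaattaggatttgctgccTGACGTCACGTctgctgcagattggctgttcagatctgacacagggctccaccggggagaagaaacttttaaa

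The Tgfb1 window, of 75.2% G and C, held none of the 5 motifs. The Tgfb2 window held the palindrome CACGTG at bases 51 to 46 before the start, which reads as ACGTG on both strands, and 16.6% of all 32851 promoters in the table held ACGTG. The Ltbp1 window held TGACGTCA at bases 73 to 66 before the start, an octamer found in 1.55% of promoters, and it runs into a reversed ACGTG at bases 67 to 63. The downstream Ltbp1 window and those of Tgfbr1, Tgfbr2 and Tgfbi held none. The AP-1 site was found in 6.75% of promoters, the TEAD site in 12.6% and the SMAD box in 0.167%. A match is a string of letters and not a measured binding site.

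Estimated counts per control library totalled 19256840 to 32169289, and per MCKO library 23883877 to 34246477. CPM are counts per 1000000 of these totals. Cdc42 was 377 to 424 CPM in controls and 238 to 248 CPM in MCKO, with a log2 fold change of -0.66 (SE 0.047, edgeR adjusted p = 2.93e-06). Heart muscle markers were abundant in every library. The 12 listed ones summed to 35191 to 38123 CPM in controls and 41445 to 42703 CPM in MCKO, with cardiac actin, Actc1, at 10037 ± 438 and 11293 ± 242 CPM and the myosin gene Myh7 at 6332 ± 449 and 10131 ± 306 CPM (mean ± SD, n = 3). Among tested genes, 58.4% were called at an adjusted p under 0.05, 29.3% higher and 29.1% lower in MCKO, and for 65.5% the CPM of controls and MCKO were apart.

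Of the 8 TGF-beta genes, 3 rose, 2 fell and 3 were not called. The share of 62.5% called is close to the 58.4% of all tested genes and is not a result about these genes. Both falls were at least 2-fold, as were 3.99% of the tested genes. None of the 3 rises reached 2-fold (7.03% of tested genes rose that far). The CPM of 6 of the 8 did not overlap between groups, near the share of 65.5% among all tested genes and likewise not a result about these genes. The median log2 fold change of the 8 was 0.04, and that of all tested genes was 0.00057. Tgfb1 had the largest rise and Tgfb3 and Tgfbr3 the largest falls, so ligands went both ways.

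**Figure D1:**
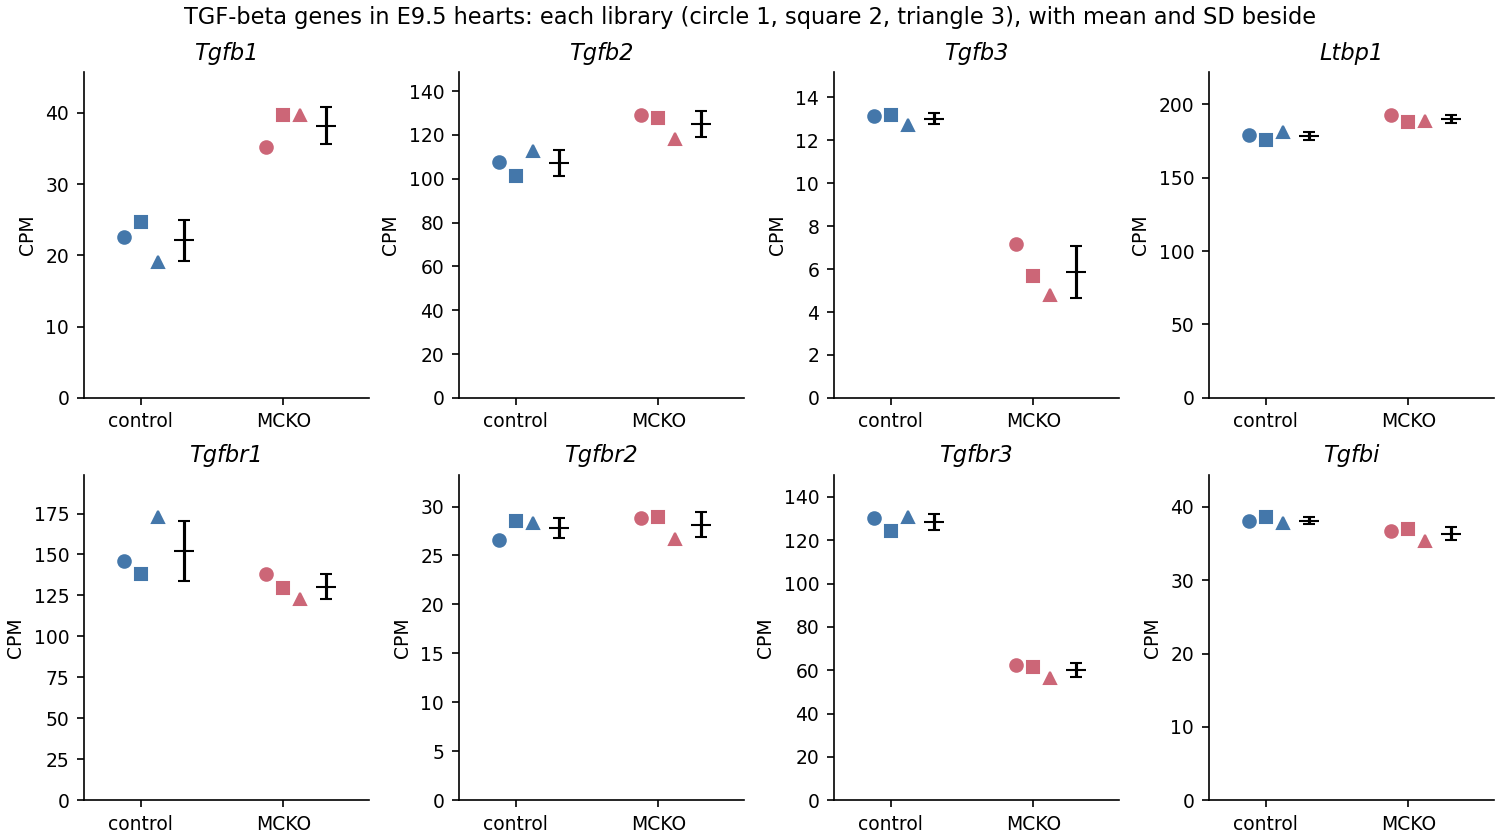
CPM of each of the 8 genes in each library (y axis from 0, circles, squares and triangles for replicates 1, 2 and 3, mean and SD in black). The MCKO libraries lie above the controls for Tgfb1, Tgfb2 and Ltbp1 and below them for Tgfb3, Tgfbr3 and, by a small margin, Tgfbi, while the groups overlap for Tgfbr1 and Tgfbr2.

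Tgfb1 (ENSMUSG00000002603, chromosome 7, 25687002 to 25705077, plus strand of GRCm38) encodes the ligand made widely by endothelium and blood cells. It was at 22.6, 24.7 and 19.02 CPM in control replicates 1, 2 and 3 and at 35.2, 39.7 and 39.7 CPM in MCKO replicates 1, 2 and 3. All MCKO libraries were above all controls, and control replicate 3 was the lowest of the 6. The mean went from 22.1 ± 2.86 to 38.2 ± 2.57 CPM, a ratio of 1.73, and the log2 fold change came to 0.86 (SE 0.098, edgeR adjusted p = 7.59e-05). In whole hearts a change in the number of cells that make a transcript and a change in transcript per cell cannot be told apart.

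Summed markers of endothelium, platelets and red cells were also higher in MCKO. Beside the counts of markers called stand the shares of all tested genes, 29.3% higher and 29.1% lower. The marker lists were chosen with earlier results of these data known. Of 12 endocardial and endothelial markers, 9 rose and 2 fell, and their sum went from a range of 1395 to 1420 CPM to one of 1652 to 1685 CPM, with the most abundant, Kdr, at 182 ± 8.43 and 250 ± 8.002 CPM. Eng, next in abundance, was at 191 ± 19.8 and 204 ± 6.82 CPM, with overlapping groups and no call. The 2 that fell, named after their values were seen, were Tek (139 ± 6.15 and 82.3 ± 3.92 CPM) and Npr3 (168 ± 11.3 and 84.99 ± 2.09 CPM). Of 9 tested platelet and megakaryocyte markers, 7 rose, and the 10 listed summed to 42.7 to 48.03 CPM in controls and 68.2 to 72.6 CPM in MCKO, with Itga2b at 19.2 ± 2.71 and 28.2 ± 0.770 CPM and Plek at 10.2 ± 0.556 and 18.7 ± 0.802 CPM. All 10 primitive red cell markers rose, from a sum of 3054 to 3347 CPM to one of 6401 to 6816 CPM, with the globin genes Hbb-y and Hba-x most abundant, at 1293 ± 51.9 and 2605 ± 93.3 CPM for Hbb-y and 806 ± 59.9 and 1768 ± 71.3 CPM for Hba-x. No marker of these 3 lists was at 0 in all libraries. Macrophage markers went the other way, with 3 of 4 tested lower. The 10 listed summed to 15.9 to 16.8 CPM in controls and 4.12 to 5.11 CPM in MCKO. Lyz2 was at 10.4 ± 0.598 and 1.05 ± 0.221 CPM, Mrc1 at 2.62 ± 0.351 and 1.86 ± 0.189 CPM, and C1qa at 0 throughout. The fall of the sum was thus mostly that of Lyz2. Other macrophage markers were barely detected over the controls and over MCKO: Adgre1 had 4 and 0 counts, Aif1 4 and 3, C1qb 5 and 4, and Fcgr1 5 and 2. These were named after their values were seen, and a fall in macrophages cannot be read from them. The part of these cells in the rise of Tgfb1 was not tested.

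Tgfb2 (ENSMUSG00000039239, chromosome 1, 186622792 to 186705989, minus strand) encodes the ligand made by heart muscle and cushion cells of the embryo, and had the most transcript of the 3 ligands. Its CPM were 108, 101 and 113 in control replicates 1, 2 and 3 and 129, 128 and 118 in the MCKO replicates. The groups did not overlap, with a gap between control replicate 3 and MCKO replicate 3 that was smaller than the spread within either group. The log2 fold change came to 0.28 (SE 0.052, edgeR adjusted p = 0.00131), with a 95% interval of 0.16 to 0.40.

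Tgfb3 (ENSMUSG00000021253, chromosome 12, 86056745 to 86079041, minus strand) encodes the ligand known for palate fusion, which is also made by mesenchyme. It fell from 13.1, 13.2 and 12.7 CPM in the controls to 7.15, 5.68 and 4.77 CPM in MCKO. The controls lay close together and the MCKO libraries spread more, at 13.0 ± 0.257 and 5.87 ± 1.202 CPM. Behind these values stood 254 to 409 counts per control library and 114 to 245 per MCKO library, the fewest of the 8 genes. The log2 fold change came to -1.07 (SE 0.13, edgeR adjusted p = 0.000113).

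The ligands thus differed in direction within the same libraries, which the ratio between them shows without any scaling between libraries. For each Tgfb1 transcript, per kb of length, the controls held 0.864, 0.797 and 0.996 of Tgfb3 and the MCKO libraries 0.303, 0.213 and 0.179. This ratio was 3.90-fold lower in MCKO, with no overlap between the groups. Length is here the union of exons, and the length taken changes the level of a ratio but not its fold between groups. By longest transcript, Tgfb3 to Tgfb1 was 0.407 to 0.508 in controls and 0.0916 to 0.154 in MCKO. The ratio of Tgfb2 to Tgfb1 was 3.57 to 5.16 in controls and 2.59 to 3.19 in MCKO, 1.49-fold lower. The ratio of Tgfb2 to Tgfb3 was 4.48 to 5.18 in controls and 10.5 to 14.5 in MCKO, 2.62-fold higher. An exact 2-sided permutation test gave p = 0.1 for each of the 5 ratios tested, the receptor ratios below included, and 0.1 adjusted over the 5. That is the smallest p that 3 libraries against 3 allow, so these ratios cannot pass 0.05.

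Levels of different genes are compared here as CPM per kb over the union of a gene's exons. The 3 ligands summed to 26.3 to 27.0 CPM per kb in controls and 29.7 to 31.6 in MCKO, a ratio of means of 1.16 (exact permutation p = 0.1). Tgfb2 made up 69.2 ± 2.80% of this sum in controls and 69.8 ± 1.14% in MCKO, with overlapping groups (exact permutation p = 0.9). Tgfb1 went from 16.4 ± 2.34% to 24.6 ± 2.15% and Tgfb3 from 14.4 ± 0.464% to 5.5998 ± 1.02%, both without overlap (exact permutation p = 0.1 each, 0.15 adjusted over the 3 shares). Tgfb1 is the gene whose length matters most, with an exon union of 5042 bases and a longest transcript of 2573. With longest transcripts Tgfb1 was 25.7 ± 3.29% and 36.2 ± 2.66% of the sum, and Tgfb2 62.8 ± 3.48% and 59.5 ± 1.83%.

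**Figure D2:**
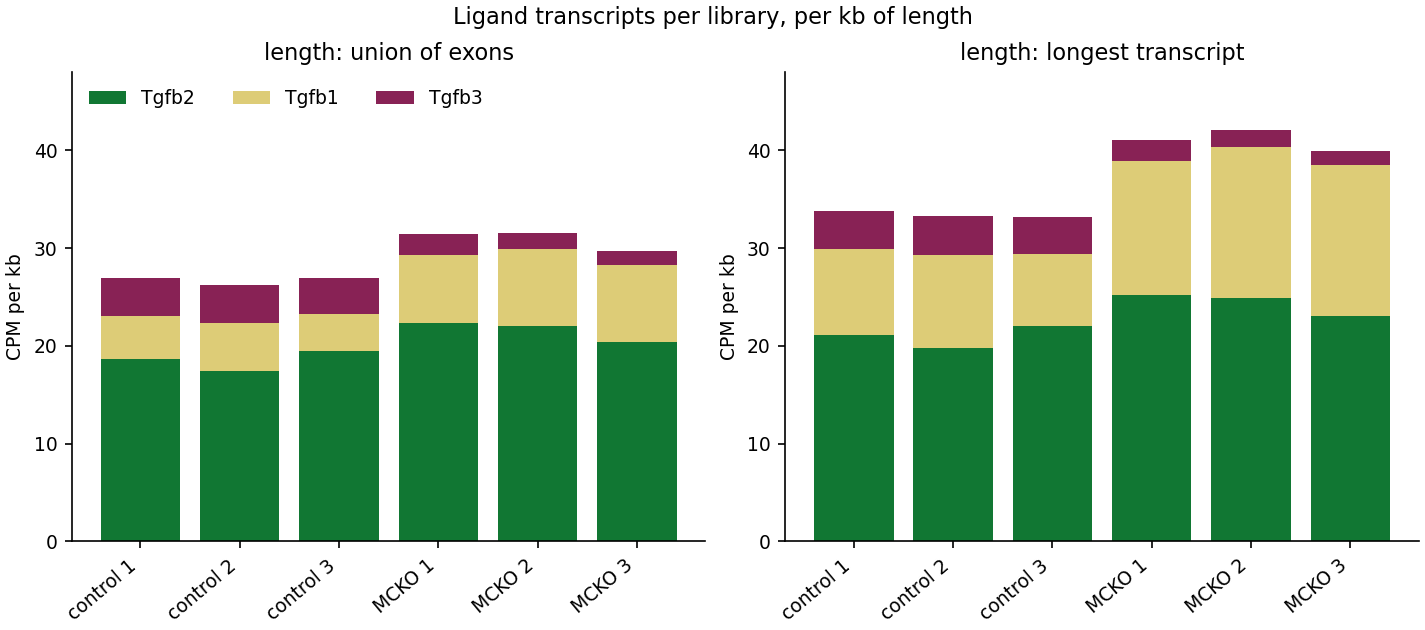
Stacked CPM per kb of Tgfb2, Tgfb1 and Tgfb3 in each library, with length taken as the union of exons (left) or as the longest transcript (right). In both panels Tgfb2 is the largest part of every bar, and the Tgfb1 part is larger and the Tgfb3 part smaller in each MCKO library than in each control.

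Ltbp1 (ENSMUSG00000001870, chromosome 17, 75005568 to 75392512, plus strand) encodes the protein that binds the latent ligand complex and anchors it to fibrillin in the matrix. Its controls were at 179, 176 and 181 CPM and its MCKO libraries at 193, 188 and 188 CPM. The groups did not overlap, but the difference was small, with a log2 fold change of 0.15 (SE 0.037, edgeR adjusted p = 0.00667). The call was lost when libraries were scaled by their totals alone, at 0.086 (edgeR adjusted p = 0.0765).

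The receptors differed from one another. Tgfbr3 (ENSMUSG00000029287, chromosome 5, 107106570 to 107289629, minus strand), the gene of betaglycan, was at 130, 124 and 131 CPM in controls and at 62.5, 61.4 and 56.4 CPM in MCKO. Every MCKO library held less than the lowest control by a wide margin. The control mean was 2.14 times the MCKO mean, and the log2 fold change came to -1.03 (SE 0.049, edgeR adjusted p = 2.53e-07), the smallest p of the 8 genes.

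Tgfbr1 (ENSMUSG00000007613, chromosome 4, 47353222 to 47414931, plus strand) encodes the type I receptor kinase ALK5. Its CPM were 146, 138 and 173 in controls and 138, 130 and 123 in MCKO, so the lowest control lay just under the highest MCKO library. It was not called, at -0.16 (SE 0.082, 95% interval -0.35 to 0.02, edgeR adjusted p = 0.119). Control replicate 3 stood high. Without it the log2 fold change was -0.06 (edgeR adjusted p = 0.313), and without control replicate 2 it was -0.23 and called (edgeR adjusted p = 0.0416). The transcript had the lowest GC content of the 8, at 41.0%, and after a correction for GC content the SE was 0.037 and the gene was called at -0.15 (edgeR adjusted p = 0.00412). Scaling by library totals also gave a call, at -0.23 (edgeR adjusted p = 0.0478).

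Tgfbr2 (ENSMUSG00000032440, chromosome 9, 116084293 to 116175360, minus strand) encodes the type II receptor kinase, which binds the ligand first. Its CPM were 26.6, 28.5 and 28.4 in controls and 28.8, 28.9 and 26.7 in MCKO, and the groups overlapped. The log2 fold change came to 0.08 (SE 0.059, edgeR adjusted p = 0.268), and its 95% interval of -0.05 to 0.21 leaves out a rise of 2-fold as well as a fall of that size. With the GC correction it was called, at 0.15 (edgeR adjusted p = 0.0382). Within libraries, Tgfbr3 per kb was 5.45 to 6.12 times Tgfbr2 in controls and 2.64 to 2.71 times in MCKO, while Tgfbr1 was 6.06 to 7.64 and 5.61 to 6.01 times Tgfbr2.

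Tgfbi (ENSMUSG00000035493, chromosome 13, 56609523 to 56639562, plus strand) encodes a secreted matrix protein named for its induction by TGF-beta. It was at 38.0, 38.6 and 37.8 CPM in controls and 36.7, 37.0 and 35.3 CPM in MCKO. As shares of the library total the groups did not overlap, by a small margin. After TMM scaling the log2 fold change came to -0.0061 (SE 0.048, edgeR adjusted p = 0.922), with a 95% interval of -0.12 to 0.10. Its sign changed between settings, so it has no direction in these data.

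**Figure D3:**
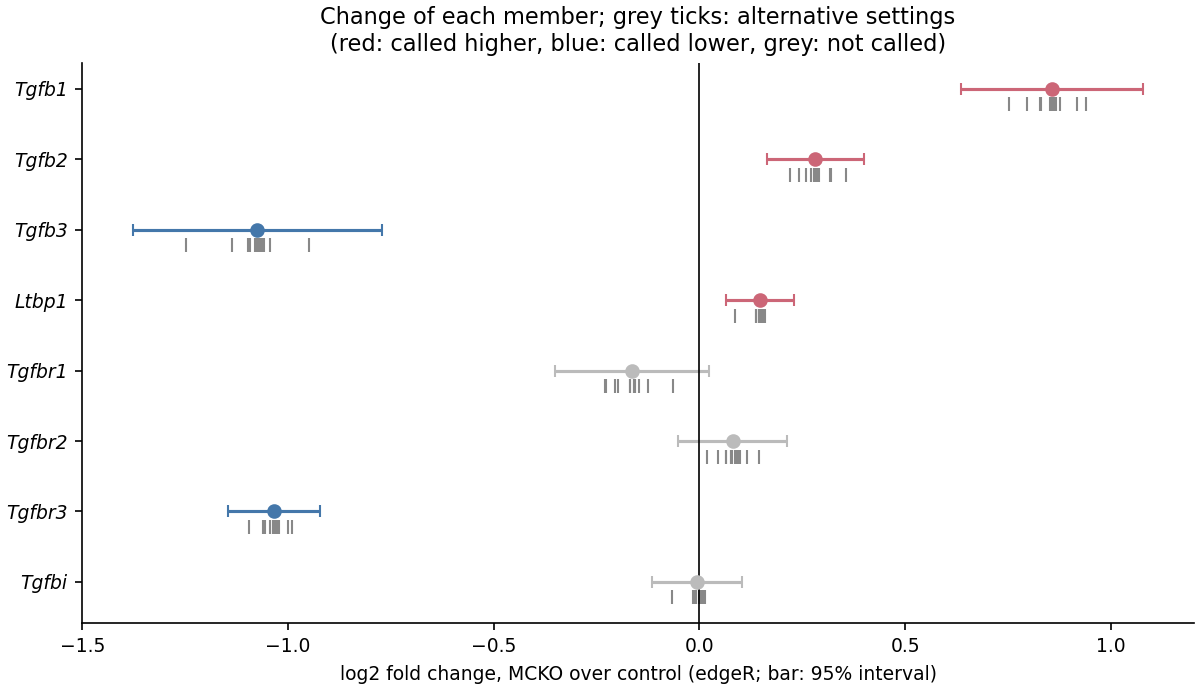
Log2 fold change, MCKO over control, of each gene (point) with its 95% interval (bar) from edgeR, and the values under 13 alternative settings (grey ticks). The intervals of Tgfb1, Tgfb2 and Ltbp1 lie above 0 and those of Tgfb3 and Tgfbr3 below it, and the intervals of Tgfbr1, Tgfbr2 and Tgfbi include 0.

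Across the 8 genes the order of levels changed at several places. Per kb of exon union in controls, Tgfbr1 was highest (23.3 ± 2.81 CPM per kb), followed by Tgfbr3 (19.6 ± 0.545), Tgfb2 (18.5 ± 1.004), Ltbp1 (16.7 ± 0.256), Tgfbi (10.1 ± 0.118), Tgfb1 (4.39 ± 0.567), Tgfb3 (3.85 ± 0.0759) and Tgfbr2 (3.40 ± 0.129). The ranges of Tgfbr3 and Tgfb2 overlapped, as did those of Tgfb1 and Tgfb3, so the order within these pairs is not settled. In MCKO the order was Tgfb2 (21.6 ± 1.03), Tgfbr1 (19.9 ± 1.17), Ltbp1 (17.7 ± 0.260), Tgfbi (9.64 ± 0.239), Tgfbr3 (9.18 ± 0.495), Tgfb1 (7.58 ± 0.510), Tgfbr2 (3.44 ± 0.153) and Tgfb3 (1.73 ± 0.355), with overlap between Tgfb2 and Tgfbr1 and between Tgfbi and Tgfbr3. By mean, Tgfbr3 thus went from rank 2 to rank 5 and Tgfb3 from rank 7 to rank 8, with ranks 2, 5 and 7 inside overlapping pairs. The ranks also depend on length: by longest transcript Tgfbr3 went from rank 3 to rank 6 and Tgfb1 from rank 6 to rank 4. With longest transcripts Ltbp1 had the highest mean in both groups, at 26.8 ± 0.411 and 28.4 ± 0.417 CPM per kb, but in controls its range overlapped that of Tgfbr1, so their order there is not settled.

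Summed markers of the cushions and the epicardium were lower in the same libraries as Tgfb3 and Tgfbr3. The counts of markers called here too stand beside 29.3% higher and 29.1% lower among all tested genes. Of 12 cushion and mesenchyme markers, 7 fell and 1 rose, and the sum went from 249 to 260 CPM in controls to 169 to 171 CPM in MCKO, with Pdgfra at 73.1 ± 2.07 and 54.4 ± 2.56 CPM and Prrx2 at 48.9 ± 3.58 and 50.6 ± 2.93 CPM. Of 9 tested epicardial and proepicardial markers, 8 fell, and the 10 listed summed to 234 to 245 CPM in controls and 89.3 to 92.7 CPM in MCKO, with Tbx18 at 63.1 ± 1.55 and 22.8 ± 0.935 CPM and Wt1 at 31.0 ± 1.05 and 25.4 ± 0.388 CPM. No marker of either list was at 0 in all libraries. The summed heart muscle markers given above were higher in MCKO, and of the 12 listed 5 rose and 2 fell. Foregut endoderm markers summed to 166 to 181 CPM in controls and 259 to 281 CPM in MCKO, with 8 of 10 higher and 2 lower. The median log2 fold change of the 10 was 1.71. Most of that sum was Krt8 (109 ± 6.69 and 165 ± 9.09 CPM) and Krt18 (50.5 ± 2.16 and 90.5 ± 2.40 CPM). The 2 that fell, named after their values were seen, were Afp (11.4 ± 0.8997 and 0.1003 ± 0.0903 CPM) and Ttr (1.29 ± 0.144 and 0.242 ± 0.0602 CPM). Which of these cells held the Tgfb3 and Tgfbr3 transcripts was not tested.

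**Figure D4:**
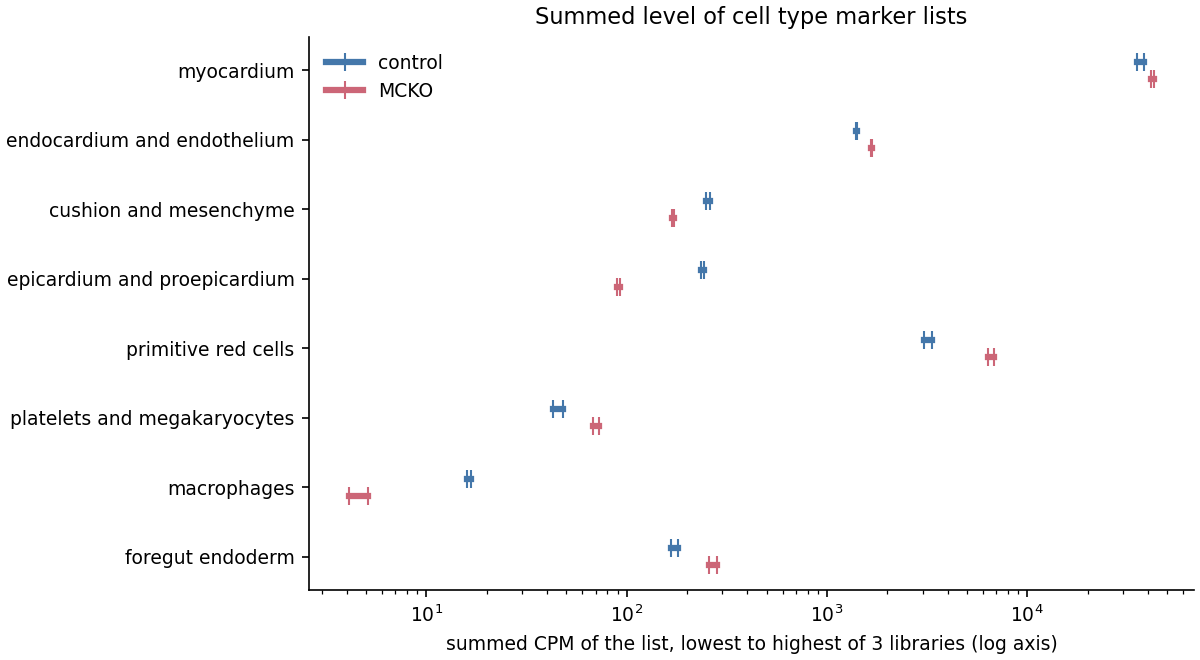
Summed CPM of 8 lists of cell type markers (log axis), from the lowest to the highest of the 3 libraries of each group. The ranges of the groups do not overlap for any list, and MCKO is lower for cushion and mesenchyme, epicardium and proepicardium, and macrophages.

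The other genes of the pathway were described from 5 lists of 73 genes, of which 72 had an ID in the table and 67 passed the filter. Of the 67, 32 rose, 17 fell and 18 were not called, so that 73.1% were called, against 58.4% of all tested genes. The share that rose was 47.8%, against 29.3%, and the share that fell 25.4%, against 29.1%. The lists were chosen with earlier results of these data known and were not matched to all genes for level. These shares therefore only describe the lists. The counts of each list below stand beside the same shares of all tested genes. Their median log2 fold change was 0.16.

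Among 13 tested genes of latency and activation, 6 rose and 4 fell, with a median of 0.14. Fbn1, fibrillin-1, the microfibril protein to which latent complexes are anchored, was at 225, 223 and 228 CPM in controls and at 128, 128 and 122 CPM in MCKO. It fell by 0.78 on the log2 scale (SE 0.038, edgeR adjusted p = 3.16e-07). Ltbp3, another latent TGF-beta binding protein gene, rose from 5.54 ± 0.469 to 11.6 ± 1.66 CPM, in contrast to the small change of Ltbp1. Itgb8, the integrin subunit that with alpha-v releases ligand from the latent complex, went from 12.6 ± 1.43 to 6.30 ± 0.926 CPM. Thbs1, thrombospondin-1, an activator of the latent complex, rose by 0.31 (SE 0.045, edgeR adjusted p = 0.000293). The activators therefore went both ways, as the ligands did.

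Among 14 co-receptors and receptor regulators, 7 rose and 3 fell, with a median of 0.19. Smad7, the inhibitory SMAD that TGF-beta itself induces, was at 35.3, 30.9 and 33.5 CPM in controls and at 58.7, 59.7 and 58.7 CPM in MCKO, with a log2 fold change of 0.89 (SE 0.056, edgeR adjusted p = 1.36e-06). Bambi, a decoy receptor without a kinase, rose from 108 ± 4.76 to 148 ± 1.81 CPM. Cd109, a membrane protein that binds TGF-beta1 and its receptors and dampens signalling, rose from 6.58 ± 0.237 to 12.6 ± 1.23 CPM, and Pmepa1, an induced inhibitor that binds SMAD2 and SMAD3, from 6.84 ± 0.404 to 10.5 ± 0.588 CPM. The 3 that fell, named here after their values were seen, were Strap (-0.36), which encodes a receptor-binding protein that works with SMAD7, Fkbp1a (-0.24), whose product FKBP12 holds the type I receptor inactive, and Tgfbrap1 (-0.32). Inhibitors of the pathway thus stood among both the rises and the falls.

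Among 13 genes of SMADs and their nuclear partners, 9 rose and 0 fell by edgeR, with a median of 0.28. The share called was 69.2%, against 58.4% of all tested genes, of which 29.3% rose and 29.1% fell. No member fell at an unadjusted p under 0.05 either, and DESeq2, on the same libraries, also gave 0 falls, with 8 rises. Smad4, the common partner of the receptor-activated SMADs, was at 126, 136 and 135 CPM in controls and at 183, 188 and 180 CPM in MCKO. Its log2 fold change came to 0.53 (SE 0.045, edgeR adjusted p = 9.44e-06). Skil, which encodes the corepressor SnoN, went from 66.6 ± 5.89 to 97.2 ± 4.16 CPM, and Sptbn1, a spectrin that serves as an adaptor for SMAD3, from 965 ± 25.9 to 1375 ± 40.1 CPM. Foxh1, a DNA-binding partner of SMAD2 in nodal signalling, rose from 12.02 ± 1.11 to 26.9 ± 0.865 CPM. The count of rises ran from 7 to 10 over the alternative settings.

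Genes that TGF-beta is known to induce went both ways. Of 17 tested, 5 rose and 8 fell, and the median was -0.17. The 3 members described first all fell and encode matrix proteins of mesenchyme. Col3a1, a fibrillar collagen gene, went from 273 ± 6.32 to 78.1 ± 1.66 CPM, and Col1a2, another, from 90.7 ± 4.19 to 27.8 ± 0.339 CPM. Postn, periostin, a protein of cushion mesenchyme, was at 32.5, 32.4 and 33.8 CPM in controls and at 3.45, 4.32 and 3.02 CPM in MCKO. Its log2 fold change came to -3.13 (SE 0.11, edgeR adjusted p = 2.74e-08). Of the 5 that rose, 2 are named here after their values were seen. Ccn2 went from 42.0 ± 2.02 to 128 ± 8.38 CPM and Lox from 0.978 ± 0.259 to 4.57 ± 0.705 CPM. Postn, which fell, and Snai2, which was not called, stand on this list and among the cushion markers. The sum of those markers was lower in the same libraries, as given above. The part of cushion cells in the falls of this list was not tested.

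**Figure D5:**
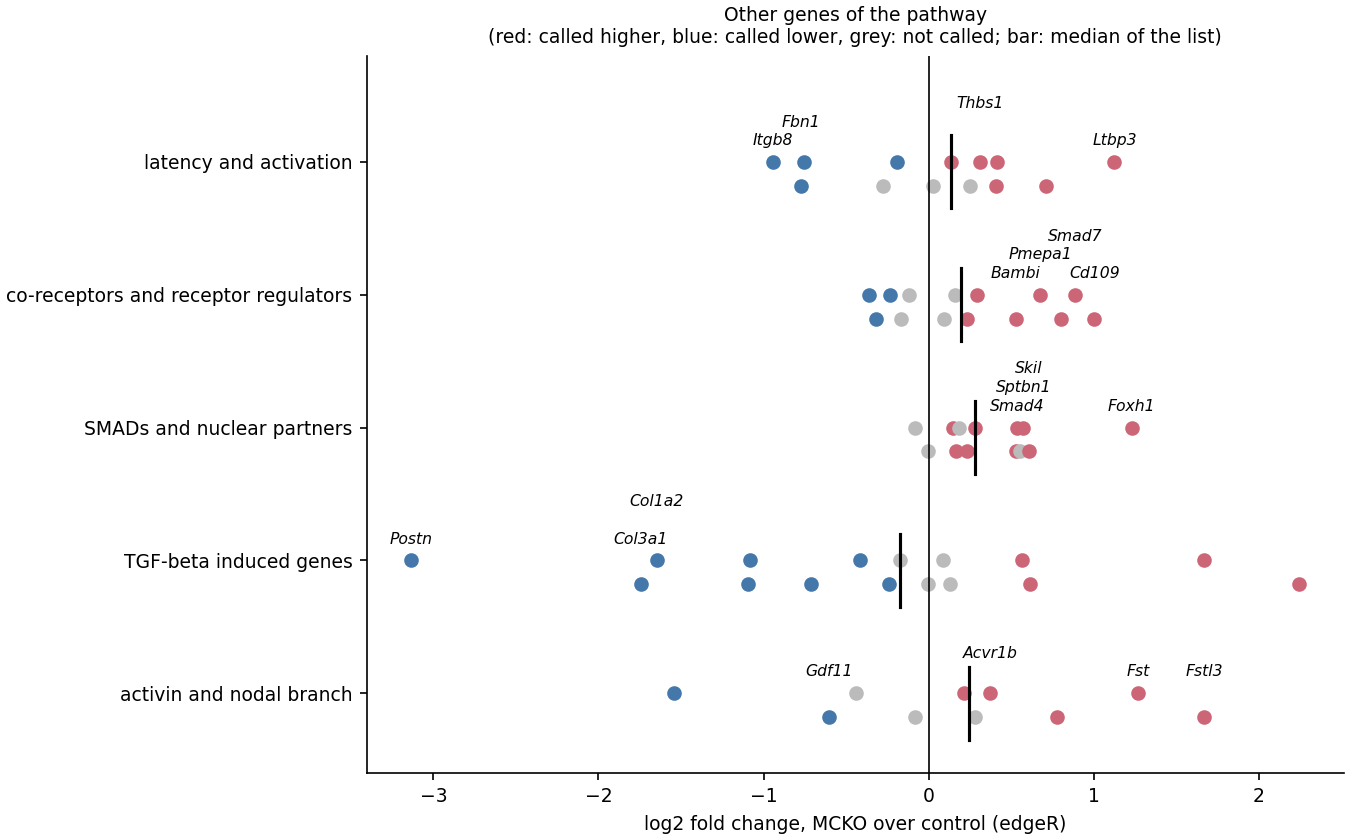
Log2 fold change, MCKO over control, of each tested gene of 5 lists of the pathway (points, in 2 offset lines per list). The median of each list is a bar, and the genes chosen by smallest p are named above their points. The list of SMADs and nuclear partners holds 9 genes called higher and 0 called lower, and the lowest point, at -3.13, is Postn (1 tested gene of the induced list is not drawn). Of all tested genes, 29.3% were called higher and 29.1% lower.

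The activin and nodal branch uses its own ligands and receptors and shares SMAD2, SMAD3 and SMAD4 with TGF-beta. Of its 10 tested genes, 5 rose and 2 fell, with a median of 0.25. The secreted activin antagonists Fstl3 and Fst rose from 2.99 ± 0.220 to 9.11 ± 1.22 CPM and from 3.32 ± 0.509 to 7.70 ± 0.769 CPM. Gdf11, a ligand of this branch, fell from 45.0 ± 1.08 to 28.4 ± 0.194 CPM, and the type I receptor gene Acvr1b, which encodes ALK4, rose from 59.7 ± 4.204 to 73.9 ± 1.87 CPM.

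The genes whose CPM followed Tgfb1 most closely over the 6 libraries were Bbc3, which encodes the cell death protein PUMA, Mvp, the major vault protein gene, and Junb, a subunit of AP-1, with Pearson r of 0.9996, 0.9990 and 0.9989 on log2 CPM. Those closest to Tgfb3 were Fnbp1, an F-BAR protein gene, Ankfy1, an endosomal protein gene, and Smarcd2, a chromatin remodelling subunit gene, at 0.9979, 0.9977 and 0.9977. The points share 2 groups and their depth, and of 10192 genes compared 10.1% had an r over 0.95 with Tgfb1 and 12.2% with Tgfb3. Closeness in r did not mean a change of the same size. Bbc3 went from 3.48, 4.41 and 2.27 CPM in controls to 11.3, 14.9 and 15.7 CPM in MCKO, a log2 fold change of 2.13, with control replicate 3 lowest as for Tgfb1. That order of the controls was not particular to this pair. Ltbp4 (46.7, 57.6 and 38.6 CPM) and Nkx2-5 (73.5, 90.8 and 53.0 CPM), named after their values were seen, had it too, and Tgfbr1 had the reverse. Fnbp1 had a log2 fold change of -0.12.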

How the data were processed

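The table the authors deposited holds estimated counts, 1 whole number for each Ensembl gene and library, with no scaling for depth or length. Per the submitters' processing notes kallisto and the build mm10 were used. The transcript set, the way transcripts were summed to genes and whether strand was used are not stated in the sources read. Per the labels' protocols the libraries came from a stranded mRNA kit. The knockout columns carry CKO where the sample titles have MCKO. Of 30323 IDs, 29857 matched a symbol. The precision of a count depends on depth: 3 counts, the most that a count of 0 allows, are 0.0876 to 0.156 CPM, for counting error only.

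MCKO was set against control in edgeR 4.0.16 under R 4.3.3, after filterByExpr and TMM scaling. The robust quasi-likelihood model held group alone, and 2-sided p-values were adjusted by Benjamini-Hochberg over 14697 genes. An SE is the log2 fold change divided by the root of the F statistic. The fit was tested on simulated counts. Gene models came from GENCODE M21. By minimap2 2.31, at 95% identity over 80% of the length, none of the 8 genes has a near-identical copy. On the opposite strand, exons of Gm29491 overlap those of Tgfb2, and exons of Gm37804 and Gm48008 those of Tgfb3. On the same strand, exons of Gm43422 overlap those of Tgfbr3. Reads of these pairs may not be told apart, and those neighbours were not analysed here.

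The 8 genes, the lists and the tests were chosen with earlier results of these data known. Named are Cdc42, the 8 genes, up to 4 called genes of each pathway list by smallest p, the 2 most abundant markers of each cell type list, and the 3 genes closest in r to the largest riser and faller, among genes averaging 5 CPM or more that are neither predicted nor sex-linked, on log2(CPM + 0.1). The gene Gdf1 of the activin list was not analysed here. The values of 1 gene of the induced list are not reported here, and the counts and medians include it. Nothing in the labels says that the libraries came from separate litters, so the p-values reflect the spread among these 6 libraries, and that spread may be technical. Between replicates the chi-square statistic per degree of freedom was 3.58 to 15.4, above sampling noise, and all 6 libraries were kept as separate samples. As alternatives, the results were recomputed with other size factors, library totals, no filter, at least 50 counts in 3 libraries, DESeq2 1.42.0, the replicate number as a block, each library left out, a threshold of 0.01 and, added after the data were seen, a correction for GC content in 20 bins.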

Additional observations from a re-analysis of the deposited data

How the results depend on the processing

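Cdc42, Tgfb1, Tgfb2, Tgfb3 and Tgfbr3 kept their direction and their call under all 13 alternative settings, as did all 20 genes that the naming rule takes from the pathway lists. Their log2 fold changes ran from 0.75 to 0.94 for Tgfb1, 0.22 to 0.36 for Tgfb2, -1.25 to -0.95 for Tgfb3 and -1.10 to -0.99 for Tgfbr3. With library totals only, which moved the median of all genes by -0.062, Ltbp1 lost its call at 0.086 (edgeR adjusted p = 0.0765) and Tgfbr1 gained one at -0.23. With the GC correction Tgfbr1 was called at -0.15 and Tgfbr2 at 0.15. With each library left out, Tgfbr1 ran from -0.23 to -0.064 and Tgfbi from -0.015 to 0.013. Tgfbi was positive without a filter (0.0017) and with the GC correction (0.0078), and it was called in no setting. The causes of these changes were not tested. The Tgfb2 share of ligand transcripts changed by 0.63 percentage points, by -3.21 with longest transcripts, and by -0.71 to 2.08 with each library left out.

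The settings called 7452 to 9302 genes at the threshold of 0.05 and 6664 at 0.01. A replicate block left 7765 genes called, with the calls of the 8 genes as without it. Libraries with the same number had deviations that correlated at -0.0047, 0.022 and -0.13, and 1 of 6 libraries correlated best with its own number, so the numbers were not taken to pair the samples. Tgfb3, at 114 to 409 counts per library, is the least precisely measured of the 8.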

Other observations

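The filter on low counts left out 5 genes of the pathway lists, which were therefore not tested and are named here because of it. Mstn, which encodes the muscle growth inhibitor myostatin, had 21, 6 and 20 counts in control replicates 1, 2 and 3 and 1, 0 and 0 in the MCKO replicates. Scaled to the library totals, the controls held 50.3 times the MCKO level, with a 95% counting interval of 8.59 to 2027. Nodal, the ligand of left-right patterning, went the other way, with 4, 2 and 1 counts in controls and 12, 12 and 14 in MCKO, a ratio of 5.08 with an interval of 2.24 to 13.5. Itgb6, an integrin subunit that activates latent TGF-beta in epithelia, had 8 counts over the controls and 26 over MCKO, a ratio of 3.04 (interval 1.34 to 7.77). Cdkn2b, a cell cycle inhibitor gene induced by TGF-beta, had 12 and 34, a ratio of 2.65 (interval 1.34 to 5.62). Gdf3 had 7 counts over the controls and 2 over MCKO, a ratio of 0.267 with an interval of 0.0271 to 1.40, so no difference was detectable at this depth. These intervals are exact binomial ones and cover counting error only.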
